A study of Mus musculus with 12 samples.

Results

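Txnip, its 4 arrestin-domain relatives Arrdc1 to Arrdc4, the transcription factor genes Mlxip and Mlx, and the thioredoxin genes Txn1 and Txn2 were followed. They were measured in mouse fibroblasts that carried inducible constructs of N-VEGF, a product of the VEGF-A transcript. The 9 genes were taken by symbol from a table of read counts of 54447 features, and all 9 were among the 13608 genes with enough counts to be tested. The set was chosen by the drop of Txnip in NLS-N-VEGF cells given doxycycline (dox), and Txnip and Arrdc4 are also on the study's own list of genes changed in these libraries. The values of that response are therefore given as a description.

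The cells were NIH3T3, an established line of mouse embryonic fibroblasts, infected with a lentivirus that carried a His-tagged insert and a Tet activator under puromycin selection. N-VEGF is the stretch at the N-terminus of the longer translation product of VEGF-A, and NLS-N-VEGF carries in front of it the nuclear localization signal of Cas9. The 4 groups were N-VEGF cells without dox, N-VEGF cells with dox, NLS-N-VEGF cells without dox and NLS-N-VEGF cells with dox, so that every group carried a construct and none lacked the vector. Dox switches on the promoter of the insert, and the study asked which transcripts change when N-VEGF reaches the nucleus. The infected cells were selected populations rather than single clones. No group received dox without an N-VEGF insert. An effect of dox itself and an effect of the insert therefore cannot be told apart within a population. Each group had 3 libraries, of which libraries 1 and 2 share a suffix in their labels (suffix a; libraries 1a and 2a) and a further library 2 has another (suffix b; library 2b). The labels do not say what the suffix stands for, nor whether the libraries came from separate cultures, so the p-values measure the spread between these libraries, which may be technical.

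Txnip binds thioredoxin through a disulphide and restrains its reducing activity, and it also lowers glucose uptake by drawing glucose transporters from the cell surface. It belongs with the Arrdc proteins to the alpha-arrestins, adaptors that bring ubiquitin ligases to membrane proteins. Txnip and Arrdc4 are known as targets of MondoA, the product of Mlxip, which enters the nucleus with its partner Mlx when glucose 6-phosphate accumulates and binds paired CACGNG half-sites, known as carbohydrate response elements. In fibroblasts in culture, Txnip is known to respond to glucose, to the state of mitochondria and to growth factors.

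The promoters of Txnip and Arrdc4 are shown because these genes carried the differences described below, and that of Arrdc2 is shown as a relative whose level moved little. Each run is the 250 bases before the RefSeq start in the GRCm38.p6 build, read in the direction of transcription. They lie at chr3:96557707-96557956 (plus strand, Txnip), chr7:68749239-68749488 (minus strand, Arrdc4) and chr8:70839721-70839970 (minus strand, Arrdc2). Capitals mark matches on either strand to 4 motifs. The E-box was searched as CACGTG. Paired half-sites of a carbohydrate response element were searched as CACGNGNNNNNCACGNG, each site of which can itself be an E-box. The box bound by the factor NF-Y was searched as CCAAT. The FOXO site was searched as GTAAACA.
Txnip: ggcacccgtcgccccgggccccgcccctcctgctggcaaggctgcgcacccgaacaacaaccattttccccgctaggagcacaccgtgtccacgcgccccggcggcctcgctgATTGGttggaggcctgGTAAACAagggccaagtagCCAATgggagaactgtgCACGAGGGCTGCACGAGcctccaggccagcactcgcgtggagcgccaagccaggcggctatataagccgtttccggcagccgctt
Arrdc4: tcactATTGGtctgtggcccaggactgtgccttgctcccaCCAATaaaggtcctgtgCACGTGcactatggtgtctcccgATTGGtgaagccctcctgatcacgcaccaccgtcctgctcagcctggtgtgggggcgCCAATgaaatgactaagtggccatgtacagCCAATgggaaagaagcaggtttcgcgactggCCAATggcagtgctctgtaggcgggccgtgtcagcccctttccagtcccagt
Arrdc2: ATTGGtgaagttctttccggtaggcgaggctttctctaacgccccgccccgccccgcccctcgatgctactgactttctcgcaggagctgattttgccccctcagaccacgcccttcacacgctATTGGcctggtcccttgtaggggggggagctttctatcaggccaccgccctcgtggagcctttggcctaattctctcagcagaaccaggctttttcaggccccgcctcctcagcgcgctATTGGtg

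The Txnip run held the paired half-sites from base -85 to -69, a pattern found in 15 of 32851 promoters of the same length (0.0457%). It also held 2 CCAAT boxes and 1 FOXO site, which were in 33.8% and 3.17% of promoters. The Arrdc4 run had no such pair. It held 1 E-box from base -193 to -188, a motif of 6.02% of promoters, and 6 CCAAT boxes, where 2.79% of promoters had 3 or more. Arrdc2 had 3 CCAAT boxes and neither the E-box nor the paired half-sites as searched. Of the other members, Mlx had 1 E-box and 2 CCAAT boxes, Mlxip 2 CCAAT boxes, and Arrdc3 (at 2 of its 3 listed starts) and Txn2 1 each, while Arrdc1 and Txn1 had no match. All 9 members were found in the RefSeq promoter table. A match describes letters and does not show that a factor binds.

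Total counts were 13549331 to 18982127 per library, and 3 counts, taken as the floor of detection, corresponded to 0.158 to 0.221 CPM (counts per mega-count of the library). The 4 libraries with suffix b had 13862189 to 17316049 counts, within the range of the others. Fibroblast markers summed to 11270 to 14247 CPM, with 10 of 12 above 1 CPM in the mean of every group; epithelial, endothelial, blood, and muscle and fat markers each summed to at most 13.5 CPM. Lum, a fibroblast proteoglycan, was near the floor at a mean of 0.407 CPM.

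Txnip (ENSMUSG00000038393, chromosome 3, 96557957 to 96561883, plus strand, GRCm38) varied most among the 9 genes. Counts were divided by library sizes that TMM factors (trimmed mean of M-values) had scaled, and are given as CPM. Uninduced N-VEGF cells had 62.7, 62.5 and 9.44 CPM of Txnip in libraries 1a, 2a and 2b. Induced N-VEGF cells had 37.0, 26.1 and 6.56 CPM. Uninduced NLS-N-VEGF cells had 59.1, 58.2 and 11.2 CPM, and induced ones 19.9, 14.7 and 7.93 CPM. In every group the library with suffix b was the lowest, and no library of that suffix reached the lowest library of the other. Within suffix a the 4 libraries without dox lay close together and above all 4 libraries with dox. Within suffix b the 2 libraries without dox were also above the 2 with dox.

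As group means, Txnip stood before dox at 44.9 ± 30.7 CPM in N-VEGF cells and 42.8 ± 27.4 CPM in NLS-N-VEGF cells (SD, n = 3). With dox it stood at 23.2 ± 15.4 CPM in N-VEGF cells and 14.2 ± 6.01 CPM in NLS-N-VEGF cells (SD, n = 3). Neighbours in this order overlapped within their SD.

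Arrdc4 (ENSMUSG00000042659, chromosome 7, 68736995 to 68749241, minus strand), which like Txnip limits glucose uptake, was also lowest in suffix b, at a lower level overall. Its values were 16.2, 17.4 and 5.07 CPM in uninduced and 10.9, 10.3 and 3.75 CPM in induced N-VEGF cells. They were 15.5, 17.0 and 3.64 CPM in uninduced and 7.07, 6.04 and 3.97 CPM in induced NLS-N-VEGF cells. The 4 libraries of suffix b were below the 8 others, but their order was not that of Txnip: uninduced NLS-N-VEGF cells were the highest of them for Txnip and the lowest for Arrdc4. The means were 12.9 ± 6.78 and 12.1 ± 7.34 CPM in uninduced and 8.31 ± 3.97 and 5.69 ± 1.58 CPM in induced N-VEGF and NLS-N-VEGF cells, respectively (SD, n = 3), and the neighbours in that order overlapped likewise.

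**Figure D1:**
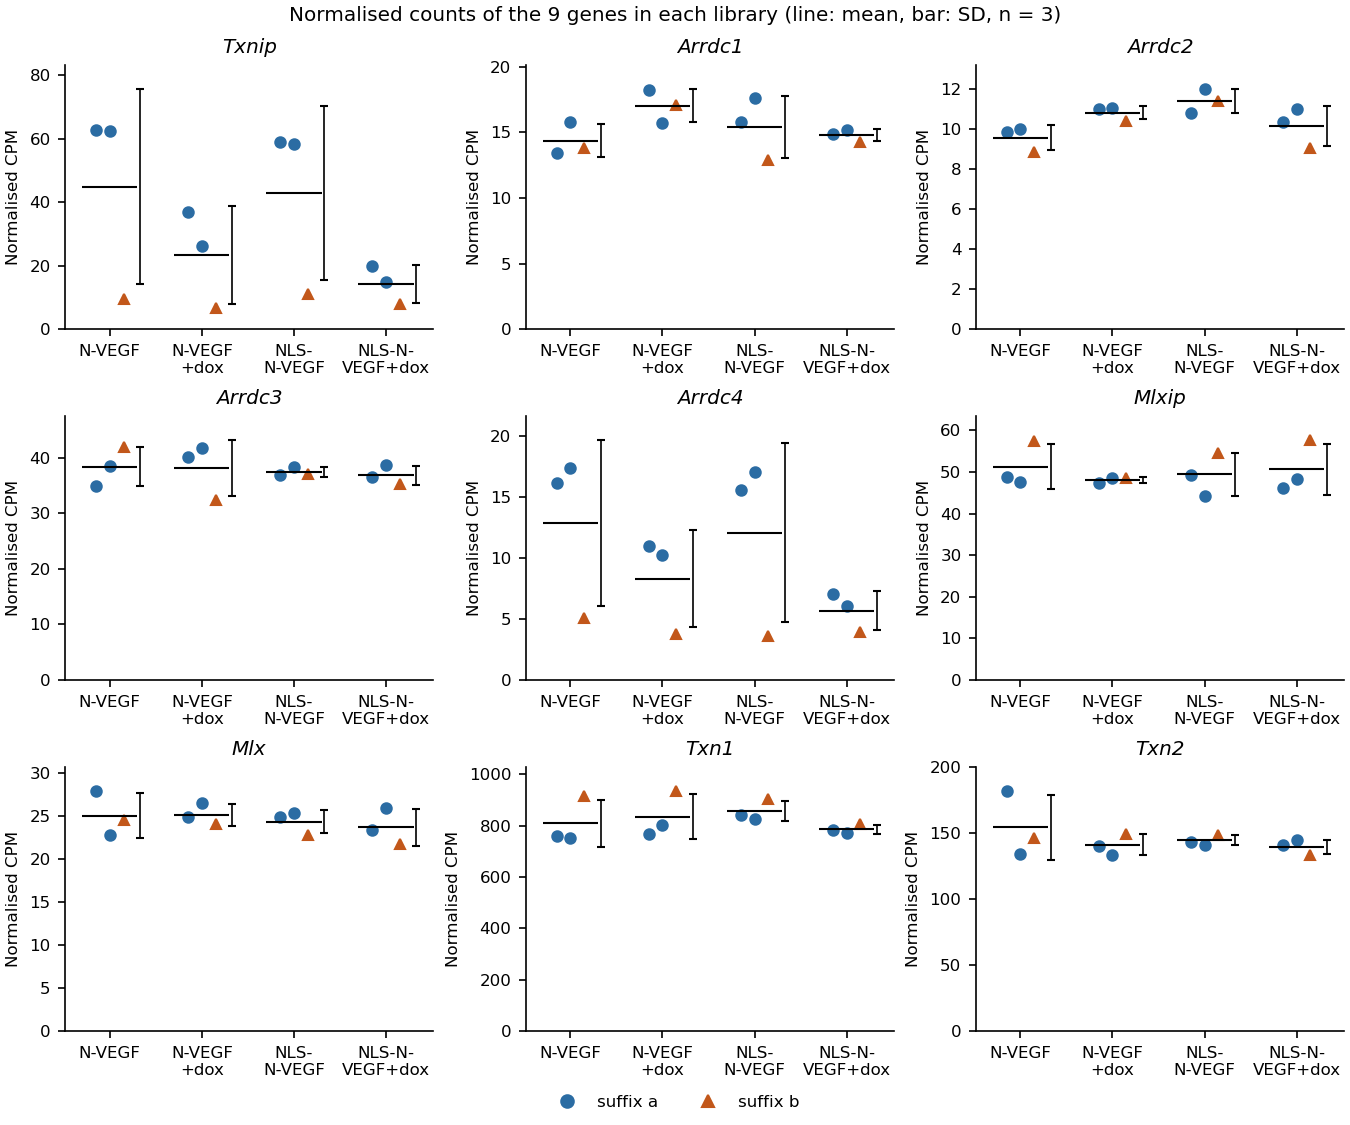
Normalised CPM of each of the 9 genes (linear axes from 0) in the 12 libraries, by group, with circles for suffix a and triangles for suffix b, lines for means and bars for the SD of 3 libraries. Txnip (6.56 to 62.7 CPM) and Arrdc4 (3.64 to 17.4 CPM) spread widely and their triangles are lowest in every group, while the highest library of each other gene is at most 1.41 times its lowest.

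The other members varied little. The coefficient of variation over the 12 libraries was 74.4% for Txnip and 56.8% for Arrdc4, against 7.16% to 10.8% for the other 7 genes and a median of 11.9% over the 12058 genes whose mean reached 1 CPM. By this measure Txnip ranked 33 and Arrdc4 117 of those genes. The 12 libraries include those whose values chose Txnip, so these ranks are a description. Arrdc1, an adaptor that buds vesicles from the plasma membrane, had 12.9 to 18.2 CPM, and Arrdc2 had 8.86 to 12.01 CPM. Arrdc3, an adaptor known for the beta-adrenergic receptor, had 32.4 to 41.8 CPM.

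Both transcription factor genes were steady as well. Mlxip had 44.3 to 57.7 CPM and Mlx 21.7 to 27.9 CPM. Txn1, the cytosolic thioredoxin that Txnip binds, had 754 to 935 CPM, and Txn2, the mitochondrial form, had 134 to 182 CPM. The highest value of Txn2 was that of library 1a of N-VEGF cells without dox, and the other 11 libraries were at or below 149.8 CPM.

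The length of a gene was taken as all its annotated exon bases, whichever transcripts are expressed, so an order by length is approximate. Per length, as mean CPM per kilobase of exon over the 12 libraries, Txn1 led with 782 ± 60.6, followed by Txn2 with 34.5 ± 3.07 and Mlx with 12.3 ± 0.88 (SD, n = 12). Txnip followed at 10.02 ± 7.45, but its libraries ranged widely about this mean. Txnip had 18.6 to 20.1 CPM per kilobase in uninduced libraries of suffix a, above every library of Mlx, 4.71 to 11.8 in induced libraries of suffix a, and at most 3.59 in the 4 libraries of suffix b, below every library of Arrdc1, Arrdc3 and Mlxip. Arrdc1 (6.13 ± 0.66), Arrdc3 (6.02 ± 0.45) and Mlxip (5.99 ± 0.52) could not be told apart. Arrdc2 (3.25 ± 0.29) and Arrdc4 (2.41 ± 1.37) were lowest and overlapped. Per library, Txnip had 1.75 to 3.88 counts for each count of Arrdc4. This ratio was 3.42 to 3.88 in the 4 libraries of suffix a without dox and 2.44 to 3.38 in the 4 with dox. In suffix b it was 3.08 and 1.86 in NLS-N-VEGF and N-VEGF cells without dox, and 2 and 1.75 with dox.

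An annotated antisense gene, Gm15441, runs across Txnip on the minus strand (chromosome 3, 96555765 to 96566801). It shares 606 exon bases with Txnip, or 19.4% of the exon bases of Txnip. The library kit does not keep the strand, so reads from the shared bases cannot be assigned to either gene, and the Txnip counts are uncertain to that extent. Gm15441 itself was given 0 to 6 counts per library, at most 3% of the count of Txnip. Adding its counts to those of Txnip left the log2 difference between the suffixes at -2.17. With so few counts to add, this value could hardly change, and it does not test the reads from the shared bases. Mlx shares 19.3% of its exon bases with Psmc3ip and Mlxip 3.21% with Gm15747, each on the opposite strand, while the Arrdc genes, Txn1 and Txn2 share none.

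The dox effect in N-VEGF cells compares no library of the comparison that chose Txnip, and asks whether dox with the insert outside the nucleus moved these genes. The spread in the fit was estimated from all groups, those that chose Txnip included. Its p-values are therefore not independent of that choice. The log2 ratio of dox to no dox within libraries of the same label was -0.76, -1.26 and -0.52 for Txnip and -0.56, -0.76 and -0.44 for Arrdc4, in the order 1a, 2a and 2b. All 3 pairs were thus negative for both genes. The fitted log2 fold change was -0.94 (SE 0.75) for Txnip and -0.62 (SE 0.56) for Arrdc4, each with an adjusted p of 0.9999 in edgeR's quasi-likelihood test. Leaving out single libraries moved these values between -1.45 and -0.51 for Txnip and between -1.02 and -0.28 for Arrdc4, each nearest to 0 without library 2b of N-VEGF cells with dox, and kept them negative. None of the 9 genes passed the threshold, an adjusted p under 0.05, where 0.0367% of all genes did. The unadjusted p was under 0.05 for 0 of the 9 genes and for 201 of 13608, and DESeq2 also called 0.

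With the replicate label as a block, which compares libraries of the same label, the standard errors became smaller. The log2 fold change of Txnip was then -0.90 (SE 0.19, unadjusted p 2.47e-04 and adjusted p 0.105 in edgeR), and that of Arrdc4 was -0.61 (SE 0.18, adjusted p 0.516 in edgeR). No member passed with the block, where 0.11% of all genes did, and 3 members, Txnip, Arrdc4 and Arrdc1, had an unadjusted p under 0.05, as did 735 of 13608 genes. The libraries of suffix a alone gave Txnip a log2 fold change of -1.01 (SE 0.15, adjusted p 0.0425 in edgeR), which passed, and Arrdc4 one of -0.67 (adjusted p 0.0839 in edgeR). Within the block, Txnip also passed without library 2b of NLS-N-VEGF cells with dox (edgeR adjusted p 0.00179), a library of the comparison that chose Txnip. It passed as well without library 2b of N-VEGF cells without dox (edgeR adjusted p 0.0104). Without each of the other 10 libraries in turn, its adjusted p in edgeR was 0.0798 to 0.807.

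Of the other members in N-VEGF cells, Arrdc1 had a log2 fold change of 0.25 (SE 0.12) and Arrdc2 one of 0.18 (SE 0.12) with dox. The remaining 5 genes lay between -0.13 and 0.05, and the median of the 9 genes was -0.01 against 0.00 for all genes. The lowest of these, Txn2 at -0.13, rested on library 1a without dox, since without that library it was 0.01. Neither the thioredoxins nor Mlxip and Mlx therefore showed a difference larger than the spread of their libraries.

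In NLS-N-VEGF cells the log2 ratios of dox to no dox were -1.57, -1.98 and -0.50 for Txnip in the same order of labels. For Arrdc4 they were -1.13, -1.50 and 0.12, so that the pair of suffix b did not share the direction. The fitted log2 fold change was -1.59 (3.02-fold lower, SE 0.77) for Txnip and -1.09 (2.13-fold lower, SE 0.58) for Arrdc4, and -1.45 and -0.97 with the replicate block. Because the members were chosen by these values, they carry no test here. In edgeR 0 of the 9 genes were past the threshold without the block (0.022% of all genes, with 0 of the 9 and 318 of 13608 genes at an unadjusted p under 0.05, and 0 of the 9 called by DESeq2) and 1, Txnip, with it (0.125% of all genes). The other 7 genes had log2 fold changes between -0.17 and 0.04.

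**Figure D2:**
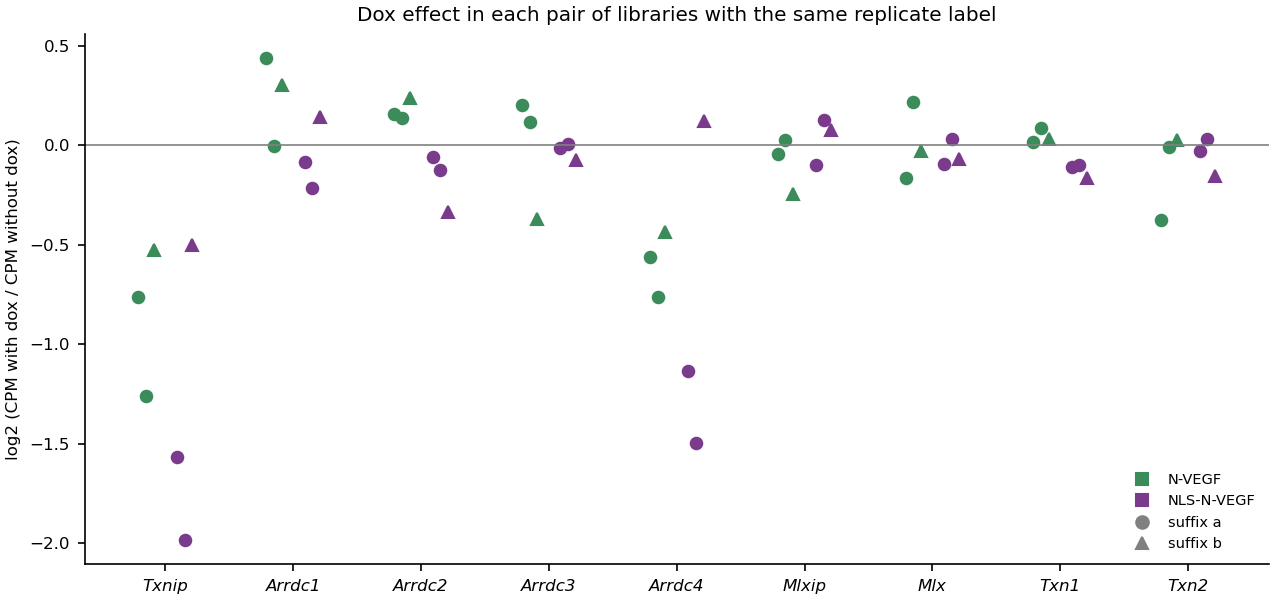
Log2 ratio of CPM with dox to CPM without dox for each of the 9 genes, 1 point per pair of libraries with the same label, in N-VEGF cells (green) and NLS-N-VEGF cells (purple), with circles for suffix a and triangles for suffix b. All Txnip points lie below 0, between -0.50 and -1.98, and 5 of 6 Arrdc4 points do, while the other genes scatter about 0.

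The difference of the dox effects, NLS-N-VEGF minus N-VEGF, also contains the values that chose Txnip. On the log2 scale it was -0.65 (SE 1.06) for Txnip and -0.47 (SE 0.80) for Arrdc4, and -0.55 (SE 0.28) and -0.36 (SE 0.27) with the block. Single libraries weighed on these values: leaving each out in turn gave -1.09 to -0.15 for Txnip and -0.89 to -0.07 for Arrdc4 without the block. With the block it gave -0.87 to -0.27 for Txnip and -0.61 to -0.12 for Arrdc4, both nearest to 0 without library 2a and farthest from it without library 2b of NLS-N-VEGF cells with dox. In single label pairs the Txnip ratio was lower in NLS-N-VEGF cells in both pairs of suffix a and about the same, at -0.50 against -0.52, in the pair of suffix b. For Arrdc1 the difference was -0.31 (SE 0.18) and for Arrdc2 -0.35 (SE 0.16). No gene of the whole table passed in this comparison, with or without the block (0% of all genes). In edgeR 0 of the 9 genes (116 of all 13608) had an unadjusted p below 0.05 if the block was left out and 1, Arrdc2, with it (464 of 13608), and DESeq2 called 0 of the 9.

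The populations were close before dox. This comparison uses the same NLS-N-VEGF libraries without dox as the one that chose Txnip. NLS-N-VEGF minus N-VEGF without dox was -0.06 (SE 0.73) for Txnip and -0.08 (SE 0.55) for Arrdc4 on the log2 scale, and -0.02 (SE 0.19) and -0.11 (SE 0.18) with the replicate block. No gene of the whole table passed (0% of all genes). In edgeR 0 of the 9 (82 of all 13608 genes) had an unadjusted p below 0.05 if the block was left out and 1, Arrdc2, with it (499 of 13608), and DESeq2 called 0. In suffix a, Txnip was at 58.2 and 59.1 CPM in the former and 62.5 and 62.7 CPM in the latter, so the populations did not overlap there but lay within a few CPM. In suffix b the order was the opposite, with 11.2 and 9.44 CPM.

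With dox, the difference between the populations was -0.71 (SE 0.77) for Txnip and -0.55 (SE 0.58) for Arrdc4 on the log2 scale. With the block it was -0.57 (SE 0.21) and -0.48 (SE 0.20). Leaving out single libraries moved the Txnip value between -1.15 and -0.21 without the block. With the block it moved between -0.89, without library 2b of induced NLS-N-VEGF cells, and -0.30, without their library 2a, and the former refit put Txnip past the threshold (edgeR adjusted p 0.0207). Since it holds the induced NLS-N-VEGF libraries, it is again a description. Without the block no gene of the table passed (0% of all genes, with 0 of the 9 and 160 of 13608 genes at an unadjusted p under 0.05 in edgeR, and 0 of the 9 called by DESeq2), and with it 0.0147% of all genes and 0 of the 9 did, with 2 of the 9, Txnip and Arrdc4, and 621 of 13608 genes at an unadjusted p under 0.05 in edgeR.

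The suffix of the labels was not used to choose the genes, but the comparison was chosen with earlier results of these data known. The suffix is balanced over the groups, with 1 library of suffix b and 2 of suffix a in each. All libraries of suffix b carry the label 2b, and those of suffix a carry 1a or 2a. Libraries of the same label deviated together from their group means, so they are not independent. The test counts libraries and not labels, so its p-values may be too small and the share of genes that passed too large. With group in the model, Txnip was 4.50-fold lower in suffix b (log2 fold change -2.17, SE 0.18, edgeR adjusted p 2.87e-07) and Arrdc4 was 2.92-fold lower (-1.55, SE 0.15, edgeR adjusted p 1.50e-06). By size these were numbers 46 and 192 of 13608 genes. Mlxip was higher by 0.20 (SE 0.06, edgeR adjusted p 0.00937) and Txn1 by 0.17 (SE 0.05, edgeR adjusted p 0.0138) on the log2 scale. The other 5 genes had log2 fold changes between -0.12 and 0.00 and did not pass.

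So 4 of the 9 genes passed in this comparison, where 45.6% of all genes did, a share near that of the whole table. At 2-fold or more, 2 of the 9 passed, Txnip and Arrdc4, where 4.98% of all genes did, 1.29% lower and 3.69% higher. Neither of them rested on 1 library. Leaving out each library in turn moved the log2 fold change of Txnip between -2.48 and -1.97 and that of Arrdc4 between -1.79 and -1.37. All 12 refits of each passed. Every refit kept libraries of label 2b, so the refits cannot show whether the difference rests on that label. Mlxip lost its call without library 2b of NLS-N-VEGF cells without dox (edgeR adjusted p 0.0511). Txn1 lost it without library 2b of N-VEGF cells, either without dox (edgeR adjusted p 0.0826) or with dox (edgeR adjusted p 0.0811). In these bulk samples fewer cells of a kind and less RNA per cell cannot be told apart.

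**Figure D3:**
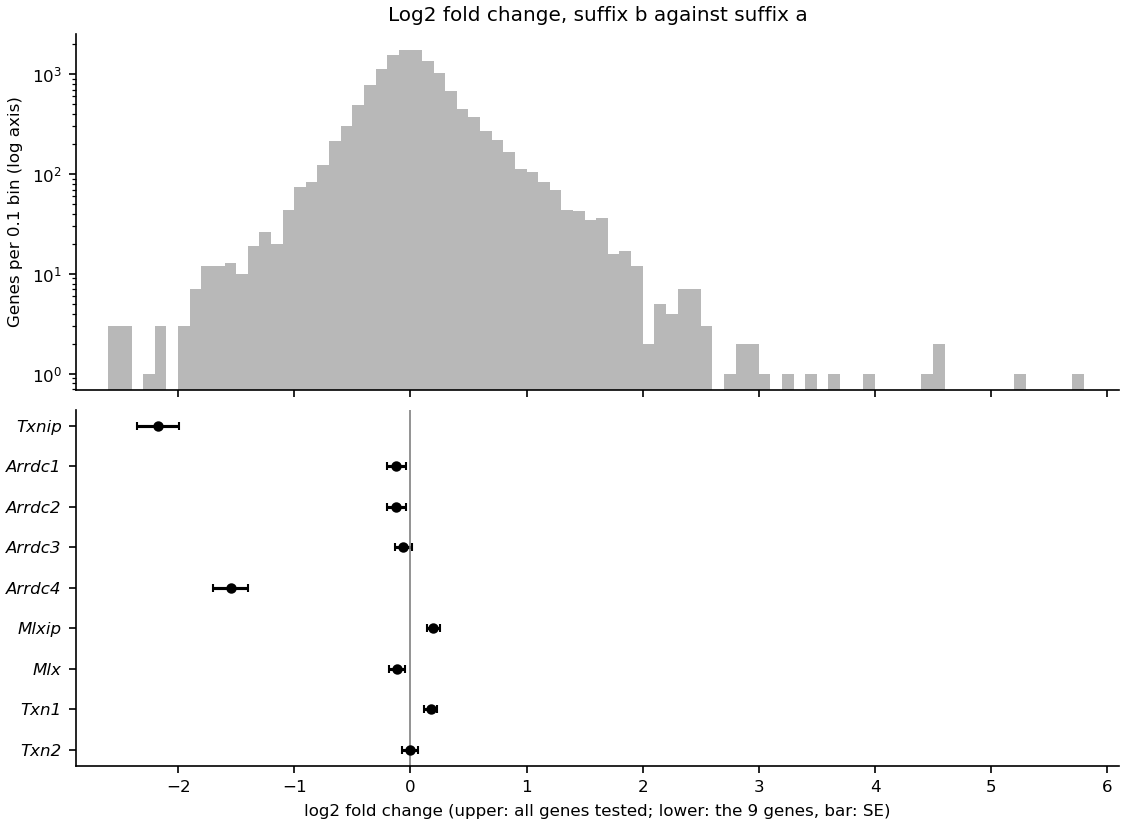
Log2 fold change of suffix b against suffix a for all 13608 genes tested (upper, number of genes per bin of 0.1 on a log axis) and for the 9 genes with their SE (lower). Txnip at -2.17 and Arrdc4 at -1.55 lie in the left tail, and the other 7 genes lie between -0.12 and 0.20.

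Group by group, the mean of Txnip in suffix a was 6.63 times its value in suffix b in N-VEGF cells without dox, and 4.81 times with dox. In NLS-N-VEGF cells it was 5.23 times without dox and 2.18 times with dox. For Arrdc4 the ratios were 3.31 and 2.83 in N-VEGF cells and 4.47 and 1.65 in NLS-N-VEGF cells, without and with dox. All 8 ratios were above 1, and the smallest of each gene was that of NLS-N-VEGF cells with dox.

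Whether the dox effect differed between the suffixes was tested with a term for suffix by dox, added after the values were seen. The dox effect, as log2 fold change, was higher (less negative) in suffix b by 0.87 (SE 0.30) for Txnip and by 0.80 (SE 0.25) for Arrdc4. Neither passed over all genes (edgeR adjusted p 0.728 for each, unadjusted p 0.0121 and 0.00673). No gene of the table passed (0% of all genes), and 3 of the 9, with Arrdc3 at -0.30, had an unadjusted p under 0.05 in edgeR, as did 927 of 13608 genes. DESeq2 was not run on this term. Between libraries 1 and 2 within suffix a, no gene passed in edgeR (0% of 13387 genes tested), DESeq2 called 0 of the 9, and 1 of the 9, Txnip at 0.22 (SE 0.09), had an unadjusted p under 0.05 in edgeR, as did 724 of the 13387 genes.

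Txnip and Arrdc4 followed each other across libraries. Over the 12 libraries, Pearson's r of log2 CPM (pseudocount 2 CPM) was 0.98, and Arrdc4 was the most like Txnip of 12057 genes, as Txnip was the most like Arrdc4. The next for Txnip were Coq9, a coenzyme Q synthesis gene, Mturn, AW551984 and Cemip, a hyaluronan-degrading protein gene, at r of 0.976 to 0.98. For Arrdc4 they were Eef2kmt, Sort1, Gm43618 and Mturn. Since the 12 points share their suffix and dox status, r was also taken within suffix a, where it was 0.987 over 8 libraries and Arrdc4 ranked 2.

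After the mean of each replicate label had been subtracted, which removes the suffix, Fam135b, Gm43618, Slc1a3, a glutamate transporter gene, Arrdc4 and Mgp, a calcification inhibitor gene, were the most like Txnip at r of 0.96 to 0.978. For Arrdc4 they were then Slc1a3, Sort1, Txnip, Fam43a and Sars2. These r describe 12 points in which dox status is shared, and have no test. Among these genes, the log2 fold change of suffix b was -1.61 for Cemip and -1.59 for Sort1, sizes near that of Arrdc4, whereas it was -0.40 for Coq9, and 0.06 for Sars2, which did not pass.

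**Figure D4:**
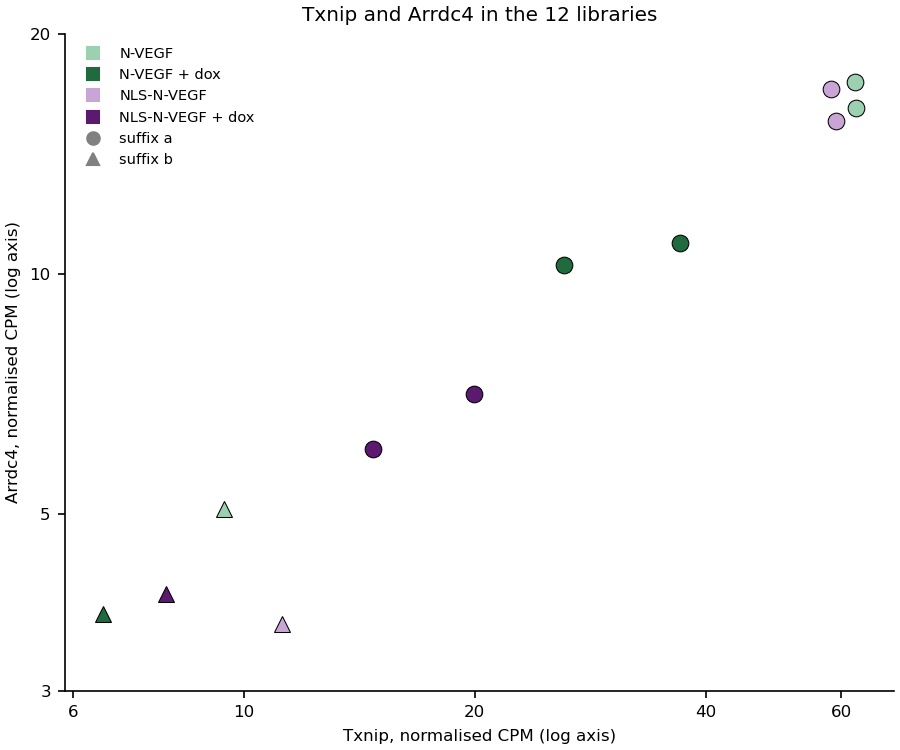
Normalised CPM of Arrdc4 against that of Txnip on log axes, 1 point per library, coloured by group, with circles for suffix a and triangles for suffix b. The 4 circles without dox lie at the top right at 58.2 to 62.7 CPM of Txnip, the circles with dox lie below them, and the triangles lie at the lower left below 12 CPM of Txnip.

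Genes of the same pathways were followed as lists, chosen with earlier results of these data known, and are described by counts beside the shares of all genes, 23.5% lower and 22.2% higher in suffix b, and the median of all genes, 0.01 on the log2 scale. Of 14 other targets of MondoA and its relative ChREBP, 7 were lower and 1 was higher, with a median log2 fold change of -0.18. Rgs16, a regulator of G protein signalling, was lower by 0.54 and Khk, which phosphorylates fructose, by 0.91, whereas Me1, the cytosolic malic enzyme, was higher by 0.35. The targets therefore did not all go the way of Txnip. The Myc-Max-Mlx network holds the factors that dimerise around Mlx and Max, and its list left out the members Mlxip and Mlx. Of its 9 listed genes, 5 were lower and 0 higher, with a median of -0.31. Of the 2 left out, Mlxip was higher by 0.20 and Mlx, at -0.12, did not pass. Mxi1 fell by 0.65, Mxd3 by 0.39 and Myc by 0.33.

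The thioredoxin system showed no common direction. Of 19 genes, 6 were higher and 2 lower, with a median of -0.00. Msrb3, a methionine sulphoxide reductase, was higher by 0.37, Prdx1, a peroxiredoxin, by 0.33 and Txnrd1, which reduces thioredoxin, by 0.30. Of 15 genes of arrestins, protein sorting subunits, ubiquitin ligases and their adaptors, partners of the alpha-arrestins among them, 5 were lower and 2 higher. Arrb1 was lower by 0.89 and Smurf1 by 0.42, and Wwp2 was higher by 0.30. Of 12 genes of glucose uptake and energy sensing, 3 were lower and 2 higher. Slc2a1, the glucose transporter GLUT1 that Txnip draws from the surface, was lower by 0.16, Akt2 was lower by 0.22, and Prkab2, a subunit of AMP-activated kinase, was higher by 0.48.

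FOXO targets are genes that rise when growth factor signalling is low. Among 14 genes of FOXO factors and their targets, 12 were lower and 1 was higher in suffix b, with a median of -0.62. The genes of the FOXO factors themselves were among those that were lower. Trib2, Ccng2 and Irs2 were lower by 0.62, 0.62 and 0.63. Among 12 genes of the glucocorticoid receptor and its targets, 5 were lower and 1 was higher, with a median of -0.13. Ddit4, an inhibitor of mTOR, was lower by 1.09, Klf9 by 0.68 and the receptor gene Nr3c1 by 0.35. Of 11 fibroblast markers tested, 4 were lower and 4 higher, with Pdgfra lower by 1.32, Thy1 higher by 0.53 and Lum higher by 5.26. Few markers of other cell types had enough counts to be tested. Of these, 4 passed in edgeR: the fat marker Fabp4 was higher by 1.85 (mean 0.768 CPM), the macrophage marker Cd68 by 0.83 (3.69 CPM) and the epithelial keratin Krt14 by 0.73 (1.56 CPM), and Csf1r of macrophages was lower by 0.43 (7.09 CPM). Cdh1, Pecam1 and Cdh5 did not pass. In suffix b and suffix a, respectively, summed markers were 1.48 to 2.68 and 0.555 to 1.25 CPM for muscle and fat, 9.995 to 12.2 and 8.32 to 13.5 CPM for blood, 3.32 to 3.79 and 2.03 to 3.32 CPM for epithelium, and 3.55 to 4.14 and 2.71 to 4.49 CPM for endothelium. The part of these marker shifts in the Txnip difference was not tested.

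**Figure D5:**
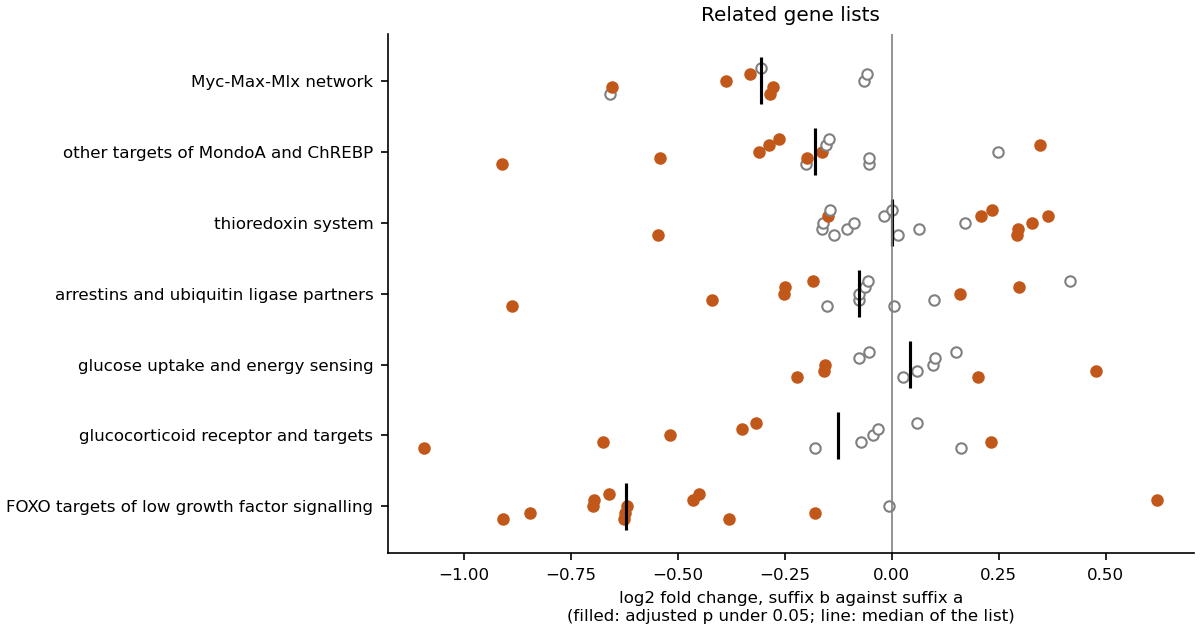
Log2 fold change of suffix b against suffix a for the genes of 7 lists, 1 point per gene, filled where the edgeR adjusted p was under 0.05, with a line at the median of the list. FOXO factors and targets lie mostly on the negative side (median -0.62), the Myc-Max-Mlx network, listed without Mlxip and Mlx, less so (-0.31). The thioredoxin system lies about 0.

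In the dox and population comparisons, no gene of these 7 lists passed without the replicate block. With the block, Trib2, a pseudokinase gene among the FOXO targets, passed in N-VEGF cells, where it fell by 0.43 on the log2 scale with dox (SE 0.08, edgeR adjusted p 0.0345). No other target of MondoA and ChREBP among 14 tested passed with dox in either population, with or without the block. Of all genes, 0.0367% in N-VEGF and 0.022% in NLS-N-VEGF cells passed with dox without the block, and 0.11% and 0.125% with it. At such shares the lack of a call among 14 genes says little about these targets.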

How the data were processed

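RNA was sequenced in 12 libraries of 4 groups with an unstranded TruSeq v2 kit as single reads of 80 bases. The authors trimmed reads, aligned them to GRCm38 with TopHat2 2.1.0 and deposited raw gene counts from HTSeq 0.6.1, whose strand option is not given in the sources used here. All 12 columns were used. From these counts, R 4.3.3 and edgeR 4.0.16 fitted quasi-likelihood models of the 4 group means to all 12 libraries (filterByExpr by group, TMM scaling, two-sided tests, Benjamini-Hochberg adjustment over all genes tested). The suffix comparison had group as a term. The script was tested on simulated data. Members, lists and comparisons were chosen with earlier results of these data known. Named genes were the 9 members, the 3 of each list with the smallest p in the suffix comparison, any other list gene that passed in a dox or population comparison, and the 5 genes most like Txnip or Arrdc4. Same-labelled libraries of different groups deviated together from their group means (18 pairs, r 0.40 to 0.83), so the label was used as a block in an alternative. The mean r of 36 other pairs was -0.25. Subtracting group means makes that value negative once same-labelled pairs agree, so it is no separate evidence. No libraries agreed within sampling noise. Alternatives were DESeq2 1.42.0, its size factors, other filters, the block, the suffix as a covariate, suffix a alone and each library left out.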

Additional observations from a re-analysis of the deposited data

How the results depend on the processing

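Counts of members past the threshold, for dox in N-VEGF cells, dox in NLS-N-VEGF cells, the populations with dox and the suffix, were 0, 0, 0 and 4. The shares of all genes that passed were 0.0367%, 0.022%, 0% and 45.6%, in that order. Without a low-count filter the counts of members were 1, 2, 1 and 2. The SE of Txnip for dox in N-VEGF cells then went from 0.75 to 0.14, and Mlxip and Txn1 lost their suffix calls (edgeR adjusted p 0.0782 and 0.0701). That SE is below the 0.19 of the block fit, although this setting leaves the spread between labels in the model. The dox and population calls without the filter are therefore not relied on. For dox in NLS-N-VEGF cells, whose values chose the members, the count was 1 with the replicate block (0.125% of all genes). It was 1 with the suffix as a covariate, 2 in suffix a alone and 2 in DESeq2 with the block. For dox in N-VEGF cells it was 1 in suffix a alone. Shares of all genes are given only for the main fit and the block, so the counts of the other settings cannot be set against them. The replicate block changed no other count of members. Without the block, leaving out single libraries kept the counts at 0 in the dox and population comparisons and at 3 to 4 for the suffix.

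Signs changed only in log2 fold changes that had not passed. Txn2 between the suffixes was 0.0086 with a minimum mean of 1 CPM, and Arrdc4 between libraries 1 and 2 was 0.011 in DESeq2. Leaving out single libraries gave -0.049 to 0.0496 for Txn2 and -0.15 to 0.0265 for Arrdc3 between the suffixes, -0.18 to 0.038 for the dox effect on Arrdc1 in NLS-N-VEGF cells, and -0.55 to 0.38 for Txnip and -0.48 to 0.33 for Arrdc4 between the populations without dox. For dox in both populations, the 5 genes Arrdc3, Mlxip, Mlx, Txn1 and Txn2 gave 21 sign changes and 0 calls in 200 refits, all between -0.22 and 0.15. With the block, such refits called Txnip in 2 of 12 for dox in N-VEGF cells and in 1 of 12 between the populations with dox. For dox in NLS-N-VEGF cells, whose values chose the members, the calls are a description and carry no test. There Txnip had, with the block, an edgeR adjusted p of 7.34e-06 to 0.138 as single libraries were left out. It lost its call without library 2a of uninduced NLS-N-VEGF cells (0.0643) and without library 1a (0.138) or 2a (0.0957) of induced ones. Arrdc4 gained one there without library 2b of NLS-N-VEGF cells, uninduced (0.0168) or induced (0.000686), and without library 1a (0.0192) or 2b (0.0299) of uninduced N-VEGF cells. For Arrdc4, at 3.64 to 5.07 CPM in suffix b (51 to 87 counts), depth limits the ratio of single pairs.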
